A study of Rattus norvegicus with 2 samples.

Results

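Cytosolic and mitochondrial chaperones, with the heat shock factors that control many of them, were examined in the adrenal medulla of rats 30 min into a hypoglycemic clamp. A set of 51 gene symbols was taken in 10 families, and every probe set annotated to 1 gene only, with that gene in the set, was used. This gave 67 probe sets of 47 genes, among 31042 probe sets and 14217 named genes on the array. The near-identical genes Hspa1a and Hspa1b count as 1 gene here. The 4 symbols with no probe set of their own were Hspa1b, Hspa8, Hsp90aa1 and Vbp1.

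The 2RH30 animals were adult male Sprague-Dawley rats given regular human insulin at 2 IU/kg, injected 2 times per day for 3 days, so that they had recurrent hypoglycemia (RH) before the clamp. The 2RS30 animals were given saline on the same schedule, and the clamp was their first hypoglycemia. According to the methods of the study only 1 injection was given on day 3. Both groups were fasted overnight, received an insulin infusion on day 4 with glucose held between 40 and 50 mg/dL, and were killed 30 min after reaching that level. RNA of the left medulla from 6 rats was pooled per group and put on 1 array per group, a short oligonucleotide array on which a gene is read by 1 or more probe sets. No difference therefore has a replicate check, no p-value or error can be given, and how far single animals vary is hidden by the pooling. As the rats of both pools were clamped, a response to low glucose that the groups share cannot be seen here.

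Chaperones bind newly made or damaged proteins and help them reach or keep their folded shape. HSP70 proteins work with J proteins (HSP40), which bring the substrate and speed up ATP use, and hand some clients on to HSP90 and its co-chaperones. TRiC and its partner prefoldin fold actin and tubulin, and the HSP60 chaperonin folds proteins inside mitochondria. Many of these genes are switched on by heat shock factor 1 when unfolded protein builds up in the cytosol, a pathway distinct from the unfolded protein response of the ER. Chromaffin cells of the medulla make and secrete large amounts of protein and catecholamines, and the J protein Dnajc5, or cysteine string protein, is found on secretory vesicles.

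The 2 arrays differed in technical measures. The hybridization controls, added in fixed amounts, differed on average by -3.25 for bioB, -2.63 for bioC, -1.49 for bioD and -0.41 for cre on the log2 scale, and the controls dap, lys, phe and thr by 0.60. The SD over probe sets was 1.57 in 2RH30 and 1.28 in 2RS30. Every difference given is the 2RH30 value less the 2RS30 value. The difference also ran with the level of a probe set, with a median of -0.40 in the lowest of 4 equal level bins and 0.36 in the highest. Each difference is therefore given as deposited and after a lowess curve of difference on level was subtracted, called level-adjusted. The 3' minus 5' difference of 3 control genes, a measure of RNA quality, differed between the arrays by -0.21 to 0.30. Markers of chromaffin cells were present, with all 8 probe sets not dim, dim meaning below the median of the array on both arrays, and they differed by 0.23 to 0.95 (median 0.58, level-adjusted 0.09). Their summed linear level was 10892.5 in 2RH30 and 7640.7 in 2RS30. The 8 probe sets for adrenal cortex genes, such as Star and Cyp11b1, were not dim either and differed by 0.33 to 1.69 (median 0.65, level-adjusted 0.07), with a summed linear level of 18737 in 2RH30 and 11833 in 2RS30. Of 8 probe sets for macrophage and leukocyte genes 4 were higher by 2-fold or more and 1 was lower. Of 5 for adipocyte genes 2 were lower by 2-fold or more (median -0.81, level-adjusted -0.84), and 2 for red blood cell genes differed by 0.42 and 1.38. The 3 for Schwann and sustentacular cell genes had a median of 0.09 (level-adjusted 0.18). The 5 for endothelial genes had a median of 0.20 (level-adjusted 0.38). The part of the cortex and of these cells in the chaperone differences was not tested, and in bulk RNA more cells of a type and more RNA per cell cannot be told apart.

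Most chaperone probe sets had the higher value in 2RH30. As deposited 54 of 67 (80.6%) lay above 0, against 51.0% of all probe sets and 62.0% of those not dim. The median difference of the 67 was 0.61, against 0.02 over all probe sets and 0.23 over those not dim. At the 2-fold threshold used in the study 17 of the 67 (25.4%) were higher in 2RH30 and 2 (2.99%) were lower, whereas over all probe sets 10.4% were higher and 12.1% lower. These probe sets are brighter than most, as 61 were not dim, and among all probe sets that were not dim 15.4% were higher and 9.46% lower. After level adjustment 42 (62.7%) lay above 0, against 50.1% of all probe sets and 48.5% of those not dim. The level-adjusted median was 0.29, against 0.00 over all probe sets and -0.03 over those not dim. In that form 11 (16.4%) were 2-fold or more higher and 2 lower, against 8.99% higher and 10.2% lower over all probe sets, and against 10.6% higher and 11.9% lower among those not dim. The adjustment turned 14 of the differences from positive to negative and 2 from negative to positive.

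**Figure D1:**
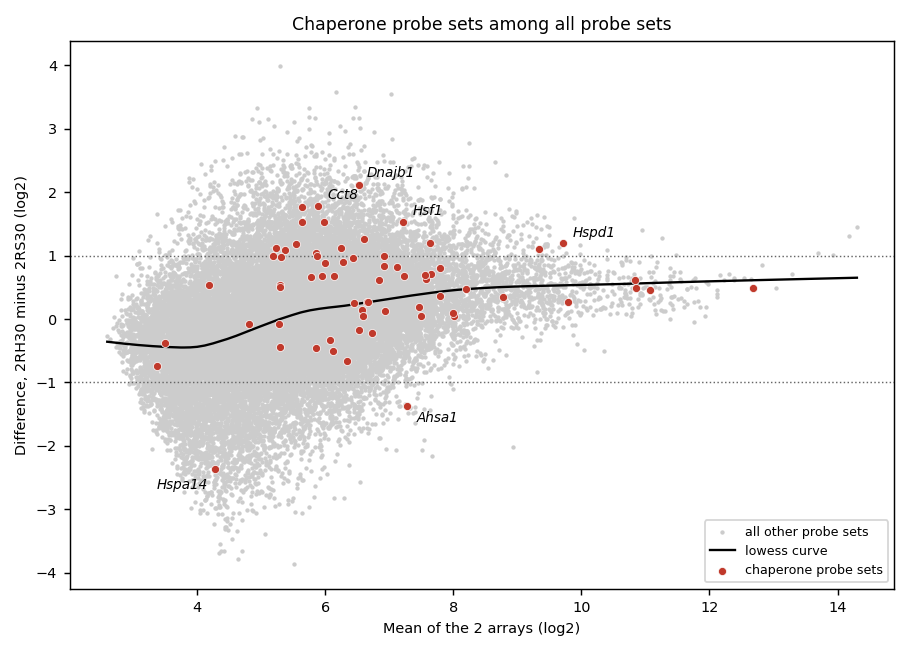
The 2RH30 minus 2RS30 difference (vertical, log2) is plotted over the mean level of both arrays (horizontal, log2) for the 67 chaperone probe sets (red) and all others (grey), with the lowess curve (black) and dotted lines at a 2-fold difference. Of the chaperone probe sets 17 lie at or above the upper dotted line and 2 at or below the lower one.

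The counts varied with the level of the members. In the third of the 4 level bins, mean levels of 5.48 to 6.37, 8 of 17 chaperone probe sets (47.1%) were 2-fold or more higher, against 13.9% of all probe sets of that bin. In the highest bin 7 of 37 (18.9%) were, against 14.5% of all, and the level-adjusted median of these 37 was 0.00. Bright chaperone probe sets thus followed the level trend on balance. Those of the third bin lay above it in the median (level-adjusted 0.72), but probe sets of Hsph1, Cryab, Ptges3 and Cct4 lay below it. The 2-fold readings of Hsph1, Hspa9, Dnajc7 and Cct8 in that bin were not shared by all probe sets of these genes.

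Both listed heat shock factors, Hsf1 and Hsf2, read higher in 2RH30. Hsf1, which in mammals drives most of the heat shock response, had a log2 value of 7.99 in 2RH30 and 6.45 in 2RS30, a difference of 1.54 or 2.90-fold (level-adjusted 1.18). Hsf2, a related factor that can pair with Hsf1, was read by 4 probe sets. They had values of 7.57, 5.91, 5.80 and 5.67 in 2RH30, against 6.89, 4.82, 4.82 and 4.69 in 2RS30 in the same order. All 4 were higher in 2RH30, by 0.69, 1.08, 0.98 and 0.99 (level-adjusted 0.33, 1.06, 0.98 and 1.03). The 4 readings of Hsf2 thus shared a direction, while only 1 of them passed 2-fold as deposited.

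Heat shock factors bind the heat shock element, in which the triplets GAA and TTC alternate with 2 bases between them. Promoters of RefSeq, taken from 250 bases before to 50 bases after the start of the gene in the GRCr8 assembly, were given for 44 of the 51 genes. A run of 3 such triplets, starting with either triplet and so covering both strands, was found in 7 of them (15.9%), those of Hspd1, Hspe1, Hsph1, Dnaja1, Chordc1, Cct4 and Hspa8. Of all 33469 promoters given 0.798% held it, and of the 13242 promoters of genes named on the array 0.476%. A pair of triplets, GAANNTTC or TTCNNGAA, which every run of 3 also contains, was found in 20 of the 44 (45.5%) and in 15.9% of all promoters. The list was drawn up around heat shock proteins, so its higher share is no independent finding, and Hspd1 and Hspe1 hold the same run. A match describes these letters and is not evidence of binding. The promoters below are those of Hspe1, which overlaps that of its chaperonin partner Hspd1, of Dnajb1, the J protein with the largest difference, and of Hsph1 and Cct4, which hold a run of 3 triplets but did not read higher throughout. Capitals mark every triplet pair or run, and all are written 5′ to 3′ on the strand of the gene.
Hspe1, chr9:64084077-64084376, plus strand: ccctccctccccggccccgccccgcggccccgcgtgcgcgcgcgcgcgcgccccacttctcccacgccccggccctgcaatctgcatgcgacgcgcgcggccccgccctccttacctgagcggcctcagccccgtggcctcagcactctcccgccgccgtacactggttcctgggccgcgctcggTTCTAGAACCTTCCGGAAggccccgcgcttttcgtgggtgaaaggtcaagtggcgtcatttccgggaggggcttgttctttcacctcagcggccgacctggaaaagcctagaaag
Dnajb1, chr19:41431092-41431391, minus strand: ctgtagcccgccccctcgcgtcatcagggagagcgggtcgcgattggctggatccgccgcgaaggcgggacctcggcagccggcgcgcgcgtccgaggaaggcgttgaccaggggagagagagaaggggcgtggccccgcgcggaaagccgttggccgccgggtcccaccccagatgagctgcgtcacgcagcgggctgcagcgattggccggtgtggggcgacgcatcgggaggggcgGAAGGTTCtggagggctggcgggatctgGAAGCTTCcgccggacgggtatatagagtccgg
Hsph1, chr12:10427118-10427417, plus strand: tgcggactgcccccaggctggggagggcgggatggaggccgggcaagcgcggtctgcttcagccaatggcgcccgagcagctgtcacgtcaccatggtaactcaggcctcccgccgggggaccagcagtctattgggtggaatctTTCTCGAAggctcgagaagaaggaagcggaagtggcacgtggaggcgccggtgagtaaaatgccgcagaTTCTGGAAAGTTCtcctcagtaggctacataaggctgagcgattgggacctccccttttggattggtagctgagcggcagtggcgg
Cct4, chr14:101192807-101193106, plus strand: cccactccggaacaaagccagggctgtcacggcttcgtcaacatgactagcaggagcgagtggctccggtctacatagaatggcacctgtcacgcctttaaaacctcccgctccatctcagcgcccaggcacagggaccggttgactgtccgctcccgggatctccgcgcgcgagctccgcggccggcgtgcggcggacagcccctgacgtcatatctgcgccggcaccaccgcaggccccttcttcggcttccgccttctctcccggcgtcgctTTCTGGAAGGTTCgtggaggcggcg

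Hspd1 and Hspe1 lie head to head on opposite strands, and their promoter windows share 211 of 300 bases, including the capitals of the Hspe1 sequence. The run lies at bases -65 to -48 from the start of Hspe1 and at -242 to -225 from that of Hspd1. In Hsph1 the run of 3 triplets lies at -36 to -24 and in Cct4 at 26 to 38, whereas Dnajb1 holds only pairs, at -11 to -4 and 18 to 25. The 6 measured genes with a run of 3 triplets did not all differ in one direction. Hspd1 and Hspe1 were 2-fold or more higher as deposited, but not level-adjusted (0.67 and 0.58). Dnaja1 differed by 0.81 and 0.04 (level-adjusted 0.38 and -0.35). Chordc1, which was dim, and Cct4 read lower, and the probe sets of Hsph1 went both ways. No match was found in the Hspa1a and Hsf2 windows. Only exact matches within the windows were sought, so this does not show that these genes lack such elements. Genes with no window given include Hsf1, Dnaja2 and Dnajb4.

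**Figure D2:**
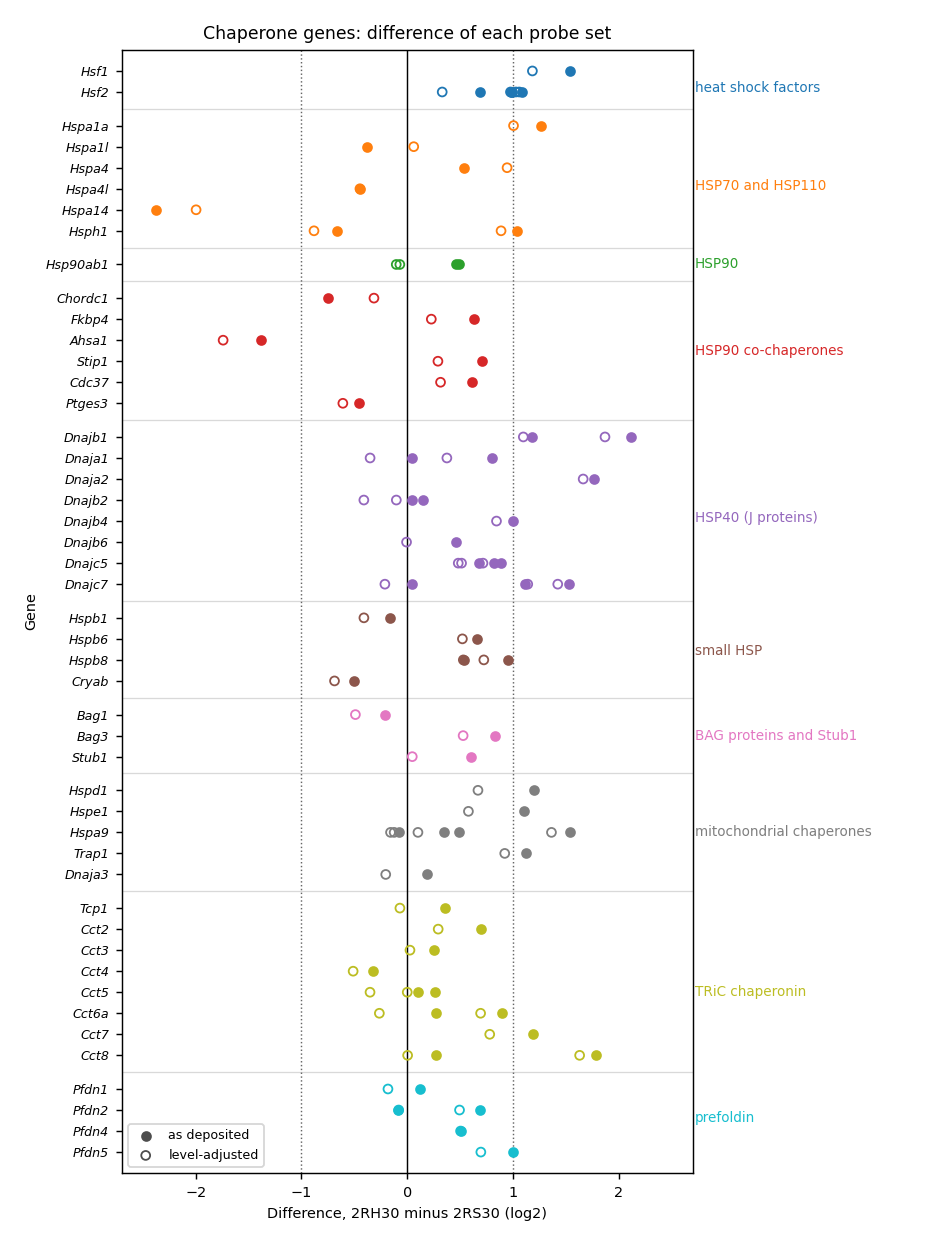
Each circle is 1 probe set of the 47 measured genes (rows, coloured by family), placed by its 2RH30 minus 2RS30 difference (horizontal, log2). Filled circles are deposited and open circles level-adjusted values, with dotted lines at a 2-fold difference. All deposited values of the heat shock factors and J proteins lie above 0, while HSP70 and HSP110 genes lie on both sides.

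The J proteins, partners of HSP70, held more 2-fold differences than any other family by number, but also had the most probe sets. All 15 probe sets of 8 genes read higher in 2RH30 as deposited, 6 of them by 2-fold or more, with a median of 0.82 (level-adjusted 0.51, with 10 above 0 and 5 at 2-fold or more). Among all probe sets not dim 62.0% lay above 0 as deposited and 48.5% level-adjusted. The share at 2-fold or more higher was 40%, as for the heat shock factors and below the 50% of the mitochondrial chaperones. Among all probe sets not dim it was 15.4%. Level-adjusted it was 33.3% for the J proteins and 10.6% among all not dim. Dnajb1, a heat-inducible J protein, had values of 7.59 and 6.14 in 2RH30, against 5.47 and 4.96 in 2RS30. Its 2 probe sets were both higher, by 2.12 and 1.18 (level-adjusted 1.87 and 1.10), and it was the one gene of several probe sets whose probe sets all passed 2-fold. Dnaja2, a cytosolic J protein that is mostly constitutive, read 6.52 in 2RH30 and 4.75 in 2RS30, a difference of 1.77 (level-adjusted 1.66) in its only probe set. Dnajc7, which also binds HSP90, had values of 6.61, 6.40 and 5.79 in 2RH30, against 6.56, 4.87 and 4.67 in 2RS30. Its differences were 0.04, 1.53 and 1.12 (level-adjusted -0.21, 1.42 and 1.14), so the first probe set did not show what the others did.

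The vesicle J protein Dnajc5 had values of 7.53, 6.44 and 6.30 in 2RH30, against 6.71, 5.55 and 5.61 in 2RS30. All 3 probe sets were higher in 2RH30 by similar amounts under 2-fold, 0.82, 0.89 and 0.68 (level-adjusted 0.48, 0.72 and 0.51). Dnajb4 read 6.37 in 2RH30 and 5.37 in 2RS30, a difference of 1.0003 (level-adjusted 0.84) that only just reaches the threshold. The readings of Dnaja1 differed by 0.81 and 0.04 (level-adjusted 0.38 and -0.35) and those of Dnajb2, a J protein enriched in neurons, by 0.05 and 0.15 (level-adjusted -0.41 and -0.10). Dnajb6, known for holding back aggregation of polyglutamine proteins, differed by 0.47 (level-adjusted -0.01). Dnaja1 thus lay on both sides of 0 once the level trend was removed, and Dnajb2 and Dnajb6 lay below it. A further 2 probe sets annotated to Dnajb6 and its pseudogenes, outside the counts, went opposite ways, by 1.26 and -0.66 (level-adjusted 0.94 and -0.79).

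The HSP70 and HSP110 genes ran both ways. Their 7 probe sets had a median of -0.38 (level-adjusted 0.06), with 2 (28.6%) at 2-fold or more higher and 1 (14.3%) lower, and 3 of the 7 were dim. Of all probe sets 10.4% were higher and 12.1% lower. Level-adjusted 1 of the 7 (14.3%) was higher and 1 lower, near the 8.99% and 10.2% of all. Hspa1a, the stress-inducible HSP70, read 7.24 in 2RH30 and 5.98 in 2RS30, a difference of 1.26 (level-adjusted 1.01). A further probe set annotated to both Hspa1a and Hspa1b, outside the counts, read 5.88 in 2RH30 and 5.55 in 2RS30, a difference of only 0.32 (level-adjusted 0.20). The 2 readings of inducible HSP70 thus differ, and neither can separate the near-identical genes. Hsph1, an HSP110 protein that recharges HSP70 with nucleotide, read 6.00 and 6.37 in 2RH30, against 6.67 and 5.33 in 2RS30. Its probe sets went opposite ways, by -0.67 and 1.04 (level-adjusted -0.88 and 0.89), so no direction can be given for this gene.

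Hspa14, an HSP70 relative that acts at the ribosome, had the lowest difference of the set. It read 3.09 in 2RH30 and 5.46 in 2RS30, a difference of -2.37 (level-adjusted -2.00), but the probe set was dim, and only 4.09% of probe sets on the 2RH30 array had lower values. Hspa4 and Hspa4l, both of the HSP110 type, differed by 0.54 and -0.44 (level-adjusted 0.94 and -0.45), and Hspa1l, a relative of Hspa1a expressed mainly in testis, by -0.38 (level-adjusted 0.06). The Hspa4 and Hspa1l probe sets were dim. A probe set annotated to both Hspa8, the constitutive HSP70, and Haus8l2 read 10.53 in 2RH30 and 9.96 in 2RS30, a difference of 0.56 (level-adjusted 0.02), and is not attributed to either gene.

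HSP90 itself differed little beyond the level trend, while its co-chaperones ran both ways. Hsp90ab1, the mostly constitutive cytosolic HSP90, which is also counted among the heat-inducible members below, had values of 11.31 and 11.10 in 2RH30. In 2RS30 they were 10.84 and 10.61. The differences were 0.46 and 0.49, which the adjustment turned to -0.10 and -0.07, so that it followed the trend of bright probe sets. For the 2 probe sets annotated to both Hsp90aa1 and its pseudogene the differences were 0.31 and -0.17 (level-adjusted -0.22 and -0.52).

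Ahsa1, the co-chaperone that stimulates the ATPase of HSP90, was the only member that was not dim and was 2-fold or more lower. It read 6.60 in 2RH30 and 7.97 in 2RS30, a difference of -1.38 (level-adjusted -1.74). Ptges3, or p23, which stabilizes the closed form of HSP90, differed by -0.45 (level-adjusted -0.61), and the dim Chordc1 by -0.75 (level-adjusted -0.31). Stip1, the adaptor that links HSP70 to HSP90, Fkbp4, an immunophilin of steroid receptor complexes, and Cdc37, the kinase adaptor, went the other way. They differed by 0.70, 0.63 and 0.61 (level-adjusted 0.29, 0.23 and 0.32), all under 2-fold. The median of the 6 co-chaperones was 0.08 (level-adjusted -0.04).

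**Figure D3:**
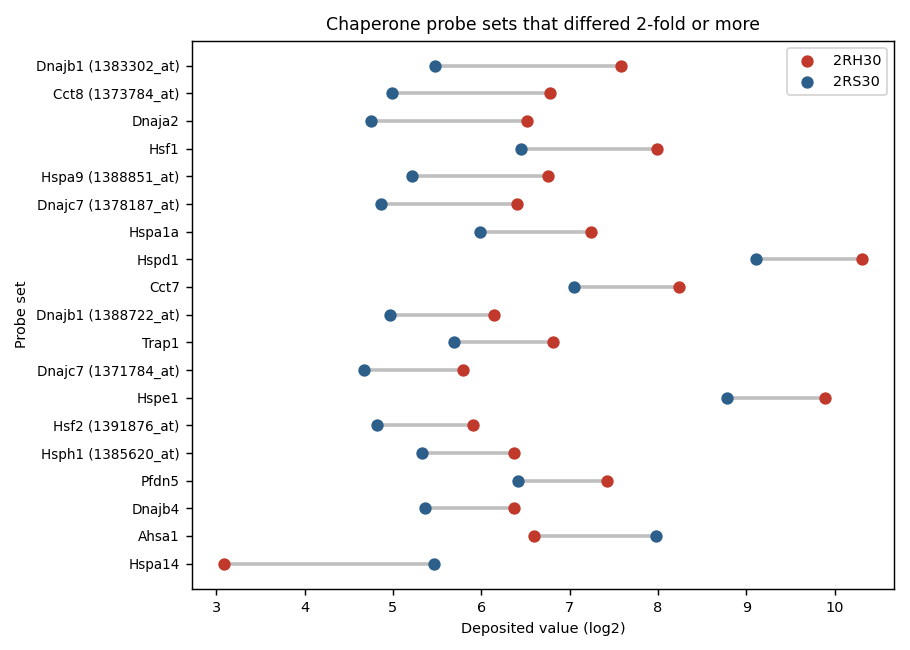
Deposited log2 values (horizontal axis) in 2RH30 (red) and 2RS30 (blue) for the 19 chaperone probe sets (vertical axis) that differed 2-fold or more, ordered by difference. In 17 the 2RH30 value is the higher one, and in Ahsa1 and Hspa14 it is the lower one.

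Among the listed small heat shock proteins, BAG proteins and Stub1 no probe set passed 2-fold. Hspb8, which works with Bag3 to route misfolded proteins to autophagy, had values of 6.92 and 5.57 in 2RH30, against 5.96 and 5.04 in 2RS30. Both of its probe sets were higher, by 0.96 and 0.53 (level-adjusted 0.72 and 0.53), and Bag3 read 7.34 in 2RH30 and 6.51 in 2RS30, a difference of 0.83 (level-adjusted 0.53). These partners thus read higher together, by less than 2-fold. Hspb6, known from muscle, differed by 0.66 (level-adjusted 0.52), whereas the heat-inducible Hspb1 and Cryab differed by -0.17 and -0.50 (level-adjusted -0.41 and -0.69). Bag1, a nucleotide exchange factor of HSP70, differed by -0.21 (level-adjusted -0.49), and Stub1, the ubiquitin ligase CHIP that tags chaperone clients, by 0.61 (level-adjusted 0.05).

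In the mitochondrial family 4 of 8 probe sets (50%) read at least 2-fold higher in 2RH30 and none passed 2-fold the other way. Of all probe sets 10.4% were 2-fold or more higher, and of those not dim 15.4%. Level-adjusted only 1 of the 8 (12.5%) was, a probe set of Hspa9, near the 8.99% of all and 10.6% of those not dim. Hspd1, or HSP60, read 10.32 in 2RH30 and 9.12 in 2RS30, and its lid Hspe1, or HSP10, read 9.89 in 2RH30 and 8.78 in 2RS30. The 2 genes, which are read outward from the promoter region shown above, were higher by like amounts, 1.20 and 1.10 (level-adjusted 0.67 and 0.58), and level-adjusted neither reached 2-fold. Trap1, the mitochondrial HSP90, read 6.81 in 2RH30 and 5.69 in 2RS30, a difference of 1.13 (level-adjusted 0.92). Hspa9, or mortalin, the mitochondrial HSP70, had values of 12.93, 8.95, 6.75 and 4.78 in 2RH30, against 12.44, 8.60, 5.21 and 4.86 in 2RS30. Only the third of these probe sets differed by 2-fold, at 1.54 (level-adjusted 1.36), and the others differed by 0.49, 0.35 and -0.08 (level-adjusted -0.12, -0.16 and 0.10). The J protein Dnaja3 differed by 0.18 (level-adjusted -0.20).

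The 8 subunits of the TRiC chaperonin, which form 1 ring complex, did not differ by a common amount. Of 11 probe sets 10 (90.9%) read higher as deposited, with a median of 0.27, and level-adjusted 7 (63.6%) did, with a median of 0.00. Among all probe sets not dim 62.0% lay above 0 as deposited and 48.5% level-adjusted. Cct7 read 8.24 in 2RH30 and 7.05 in 2RS30, a difference of 1.19 (level-adjusted 0.78). Cct8 read 6.80 and 6.78 in 2RH30, against 6.53 and 4.99 in 2RS30, giving differences of 0.27 and 1.79 (level-adjusted 0.00 and 1.63). The 2-fold difference of Cct8 therefore rests on 1 of its 2 probe sets. Cct6a differed by 0.27 and 0.90 (level-adjusted -0.26 and 0.69), Cct5 by 0.10 and 0.26 (level-adjusted -0.35 and 0.00), and Cct2 by 0.69 (level-adjusted 0.29). The remaining subunits Tcp1, Cct3 and Cct4 differed by 0.36, 0.26 and -0.33 (level-adjusted -0.07, 0.03 and -0.51).

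Prefoldin, which delivers unfolded actin and tubulin to TRiC, was measured through 4 of its listed subunits. Pfdn5 read 7.42 in 2RH30 and 6.42 in 2RS30, a difference of 1.002 (level-adjusted 0.70) that only just reaches the threshold. Pfdn4 differed by 0.51 in both forms, Pfdn1 by 0.12 (level-adjusted -0.18), and Pfdn2 by 0.69 and, in a dim probe set, -0.09 (level-adjusted 0.50 and -0.08). The median of the 5 probe sets was 0.51 (level-adjusted 0.50).

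Repeated readings of a gene by different probe sets were the only internal check, and they hold no spread between animals or pools. Of the 14 members with several probe sets 11 had all of them on one side of 0, and level-adjusted 7 did. Over all 4525 genes with several probe sets 48.7% had 1 sign, and level-adjusted 41.8%. Without dim probe sets these shares were 92.3% of 13 members (level-adjusted 53.8%) and 53.6% of all genes (level-adjusted 43.6%). As 80.6% of the member probe sets lay above 0 as deposited, their shared signs cannot be told apart from that shift. Within a gene, probe sets had an SD of 0.58 for the members (level-adjusted 0.62) and 0.80 for all genes (level-adjusted 0.78). Hsf2, Dnajb1, Dnajc5, Hspb8 and Cct8 were higher in 2RH30 in every probe set in both forms, though for Cct8 1 level-adjusted value was 0.00. Hsph1, Cct8, Hspa9 and Dnajc7 had probe sets 1.49 to 1.71 apart on the log2 scale, so their 2-fold readings were not shared by all of their probe sets.

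Members known from mouse or human cells to be induced by heat shock had a median close to that of the others. Their 22 probe sets had a median of 0.67 (level-adjusted 0.33), with 7 at 2-fold or more higher and 1 lower, and the other 45 a median of 0.54 (level-adjusted 0.29), with 10 higher and 1 lower. The share at 2-fold or more higher was 31.8% of inducible and 22.2% of other probe sets as deposited, but level-adjusted 13.6% (3 of 22) and 17.8% (8 of 45), so its order turned round. Over all probe sets this share was 10.4% as deposited and 8.99% level-adjusted. Among those not dim it was 15.4% and 10.6%, so the level-adjusted inducible share lay near it. As deposited 4.55% of inducible and 2.22% of other probe sets were 2-fold or more lower, against 12.1% of all. Of the 22 inducible probe sets 16 (72.7%) lay above 0, among them those of Dnajb1, Hspa1a, Hspd1 and Hspe1. The 6 below 0 were those of Ahsa1, Chordc1, Cryab, Hspa4l and Hspb1 and 1 of Hsph1. Level-adjusted 13 (59.1%) lay above 0 and 9 below, the latter including both of Hsp90ab1. Among all probe sets not dim 62.0% lay above 0 as deposited and 48.5% level-adjusted. A difference between these lists was not tested, since 1 array per group allows no test.

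Other genes of cytosolic and mitochondrial folding, 64 measured of 67 listed, leaned less to one side. Of their 97 probe sets 18 (18.6%) were 2-fold or more higher and 11 (11.3%) lower, with a median of 0.13 (level-adjusted 0.19, with 11 higher and 9 lower). Over all probe sets 10.4% were higher and 12.1% lower. Level-adjusted the shares were 11.3% higher and 9.28% lower here, near the 8.99% and 10.2% of all. Of the 97, 33 were dim, and without them the median was 0.17 (level-adjusted -0.07). The highest that were not dim were Clpp, a protease of the mitochondrial matrix, at 1.75 (level-adjusted 1.85), Bag6, a holdase for tail-anchored proteins, at 1.48 and 0.68 (level-adjusted 1.27 and 0.21), and Dnajc2, a J protein of the ribosome, at 1.46 and 1.41 (level-adjusted 1.16 and 1.54). The lowest were single probe sets of Dnajc6, the J protein auxilin, at -1.81 (level-adjusted -1.56), Bcs1l, an assembly factor of respiratory complex III, at -1.70 (level-adjusted -1.72), and Tsc1, also a co-chaperone of HSP90, at -1.41 (level-adjusted -1.40). The other probe set of Dnajc6, which was dim, read 0.67 (level-adjusted 1.11) and that of Tsc1, which was not dim, 0.12 (level-adjusted -0.13), so neither gene was lower throughout. Clpp read 5.92 in 2RH30 and 4.17 in 2RS30, and the lower probe set of Dnajc6 read 3.75 in 2RH30 and 5.55 in 2RS30.

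For genes of ER folding and ER-associated degradation (ERAD), 36 probe sets had a median of 0.33, with 5 (13.9%) at 2-fold or more higher and 3 (8.33%) lower. For proteasome subunits, 40 probe sets had a median of 0.22, with 3 (7.5%) higher and 4 (10%) lower. Over all probe sets 10.4% were higher and 12.1% lower, so both lists lay near that share. Level-adjusted both medians were -0.01, against 0.29 for the chaperones. Then 1 ER (2.78%) and 2 proteasome (5%) probe sets were 2-fold or more higher, against 8.99% of all. Lower were 4 of each (11.1% and 10%), against 10.2% of all. These are descriptions of the same 2 arrays, and whether the lists differ was not tested.

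**Figure D4:**
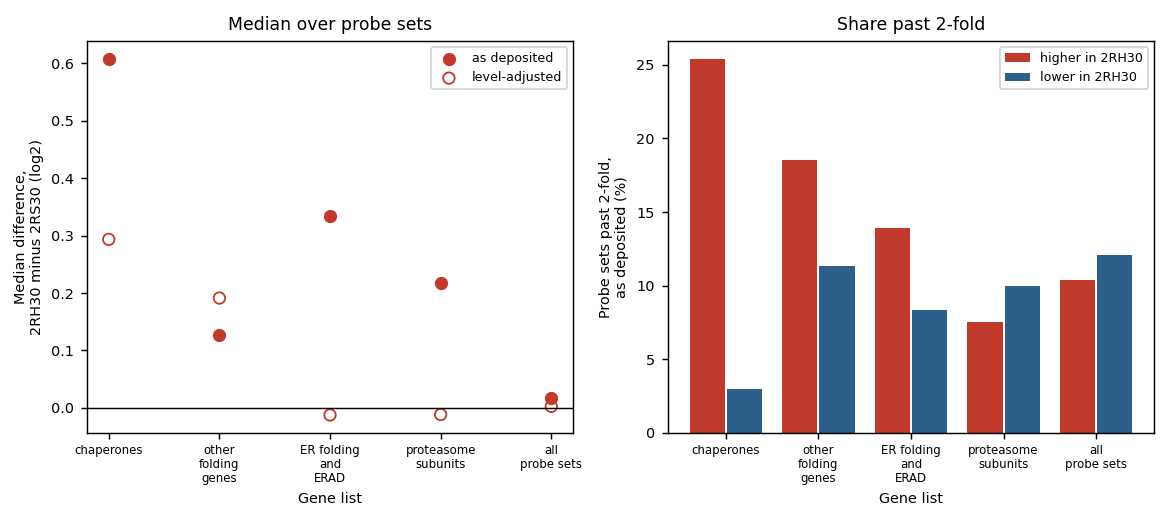
Left, the median 2RH30 minus 2RS30 difference (vertical, log2) for 5 gene lists (horizontal axis), with deposited values filled and level-adjusted values open. Right, share of probe sets 2-fold or more higher (red) or lower (blue) in 2RH30 as deposited (%). The chaperones have a median of 0.61 as deposited and 0.29 level-adjusted, and 25.4% of their probe sets are higher and 2.99% lower.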

How the data were processed

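RNA of the left adrenal medulla, pooled from 6 rats per group, was measured on Affymetrix Rat Genome arrays, with a single array for each group. The deposited values are 1 log2 value per probe set, described by the authors as quantile-normalized, although an SD of 1.57 in 2RH30 and 1.28 in 2RS30 shows that they do not share a distribution. The submission notes name Affymetrix Expression Console without a version and the methods name GCRMA in Partek for the analysis of the study, while no source used here says how probes were summarized for the deposit. Their range shows the log2 scale. The table holds 31099 probe sets, from which 57 controls were removed. Probe sets were named from the platform annotation, with symbols updated by gene number through RefSeq (GRCr8). It names 1 gene for 20826 probe sets, several for 436 and none for 9780. Members and lists were chosen with earlier results of these data known. Every member is named, and of other folding genes the 3 highest and 3 lowest genes that were not dim.

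The difference is 2RH30 minus 2RS30, counted at 2-fold. The lowess used a fraction of 0.3 and 3 iterations, and was tested on simulated data. A probe set is dim if neither array reads it above its own median. With 1 array per group no test was fitted, and the number of arrays limits the precision. Another 6 probe sets, annotated to a listed gene and another gene, were left out of the counts. Alternatives were centring, quantile normalization, the lowess, leaving out dim or cross-matching probe sets, 1 probe set or the mean per gene, and thresholds of 1.5-fold and 3-fold. Python 3.11.15, numpy 2.4.6, pandas 2.3.3, statsmodels 0.14.6 and matplotlib 3.10.9 were used.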

Additional observations from a re-analysis of the deposited data

How the results depend on the processing

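Against 17 chaperone probe sets 2-fold or more higher and 2 lower, 11 were higher after lowess, 10 with 1 probe set per gene and 11 with the mean per gene, and 1 was lower without dim probe sets. At 1.5-fold 34 were higher and 4 lower, and at 3-fold 3 and 1. The median of 0.61 was 0.31 after quantile normalization, 0.29 after lowess and 0.51 with 1 probe set per gene. After quantile normalization and after lowess, in that order, the family medians were 0.11 and 0.062 for HSP70 and HSP110 (-0.38 as deposited), 0.53 and 0.51 for J proteins, 0.11 and 0.048 for BAG proteins and Stub1, 0.34 and 0.34 for mitochondrial chaperones, and 0.023 and 0.0044 for TRiC. Without dim probe sets they were 0.30 for HSP70 and HSP110, 0.61 for HSP90 co-chaperones and 1.10 for mitochondrial chaperones, which was also 1.10 with 1 probe set or the mean per gene. After lowess the median was 0.33 for heat-inducible and 0.29 for other members, -0.0125 for ER and -0.0117 for proteasome genes. Including the 6 shared probe sets, chosen after the data were seen, gave 18 higher and 2 lower. Of 235 single values under scalings or averaging, 231 moved by less than 0.82, the within-gene SD over probe sets not dim, and 4 by more, all under averaging (1 probe set of Dnajc7, to 0.90, 1 of Hspa9, to 0.57, and both of Hsph1, to 0.19). No chaperone past 2-fold changed sign under centring, quantile normalization, lowess or averaging. The scalings shift probe sets of like level by similar amounts, here all under 0.82, so for them this outcome was fixed in advance. After lowess 7 of the 17 were no longer 2-fold higher, and 16 chaperone differences, none of them past 2-fold, changed sign. No probe set was dropped as cross-matching. Beyond fewer probe sets or another threshold, the cause was not tested. Signal over background is not given, so dim values have no stated limit. No paired analysis was possible because a group holds a single array, so no replicate could be left out.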
